A study of Mus musculus with 7 samples.

Results

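The BCL2 family decides, at the outer membrane of the mitochondrion, whether a cell lives or dies. The 10 family genes described here were chosen by name and found by their symbols among the 37310 genes of the count file. They are 3 pro-survival genes (*Bcl2*, *Bcl2l1* and *Mcl1*), 2 pore-forming effectors (*Bax* and *Bak1*) and 5 BH3-only genes (*Bcl2l11*, *Bad*, *Bid*, *Bbc3* and *Bmf*). The effectors and the BH3-only genes together make up the 7 pro-death members. All 10 passed the filter on low counts, which left 17175 genes for testing, and the fewest counts of any member in any library were 158, for *Bcl2*.

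As background, BH3-only proteins sense stress, lost attachment or lost growth signals. They either bind the groove of the pro-survival proteins or activate BAX and BAK directly. Once active, BAX and BAK permeabilize the outer membrane, cytochrome c leaves the mitochondrion, and APAF1 and caspase 9 start the caspase cascade. In the mammary gland this family is known for its part in involution, when milk-producing cells die after weaning, and *Mcl1* and *Bcl2l1* are known survival genes of the secretory epithelium.

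Mammary glands of C57BL/6 mice were taken at lactation day 1 (L1). The 3 WT mice carried *Tardbp* wt/wt with WAP-Cre, and the 4 *Tardbp* KO mice carried *Tardbp* fl/fl with WAP-Cre, so that both genotypes had the Cre transgene. This Cre is made from mid-pregnancy onwards in luminal epithelial cells, where the *Wap* promoter is active, and removes exons 2 and 3 of *Tardbp*, the gene of the RNA-binding protein TDP-43. The whole gland was sequenced, so that cells without Cre contributed RNA as well.

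The libraries held 36007737 to 42811337 counted reads, and TMM factors were 0.781 to 0.909 in WT and 1.00 to 1.23 in *Tardbp* KO libraries. Levels are given as TMM-normalized CPM (counts scaled to a common library size). Only lane 4 of the sequencer held both genotypes (WT replicate 2, *Tardbp* KO replicates 3 and 4). Luminal epithelial markers were abundant, with 169037 to 237136 summed CPM over 8 genes in WT and 56370 to 127224 in KO libraries. Nearly all of this sum was RNA of the milk proteins *Csn2* and *Wap*, and the 5 markers that are not milk proteins, *Krt8*, *Krt18*, *Krt19*, *Epcam* and *Elf5*, had log2 fold changes of 0.55, 0.64, 0.19, 0.26 and −0.59. Summed CPM of 10 lymphocyte markers was 40.5 to 58.9 in WT libraries, and 430, 72.2, 574 and 129 in KO replicates 1, 2, 3 and 4. The count of *Tardbp* over the whole gene does not check the loss of 2 exons, so the genotypes are those of the labels.

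All 10 members share the BH3 motif, the short helix through which members of the family bind each other. Its core was searched for in the translation of each gene's longest annotated coding sequence, as a leucine, any 3 residues, a small residue (glycine, alanine or serine) and an aspartate. Each member had exactly 1 match, whereas 36.9% of the 15112 tested genes with a coding transcript had at least 1. Serine was allowed after *Bad* had no match with glycine or alanine. The residue before the aspartate was glycine in 7 members, serine in *Bad*, and alanine in *Bbc3* and *Bmf*. With glycine alone the motif stood in 15.0% of the coding sequences. The coding strand around the core is shown for the 3 pro-survival genes, on which the comparison turns, and for 3 BH3-only genes with the 3 kinds of small residue. Each is 48 bases from NCBIM37, written 5′ to 3′, and capitals mark the 6 codons of the core.
*Bcl2* (chr1:108609146-108609193, minus strand, exon 1 of 2): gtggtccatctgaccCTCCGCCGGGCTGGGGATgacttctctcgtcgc
*Bcl2l1* (chr2:152655427-152655474, minus strand, exon 2 of 3): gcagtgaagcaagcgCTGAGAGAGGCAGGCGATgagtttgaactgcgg
*Mcl1* (chr3:95463344-95463391, plus strand, exon 2 of 4): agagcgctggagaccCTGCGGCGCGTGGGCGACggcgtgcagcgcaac
*Bcl2l11* (chr2:127972871-127972918, plus strand, exon 3 of 4): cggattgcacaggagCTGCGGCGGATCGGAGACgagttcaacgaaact
*Bad* (chr19:7025267-7025314, plus strand, exon 3 of 4): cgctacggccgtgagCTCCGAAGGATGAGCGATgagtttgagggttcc
*Bbc3* (chr7:16899107-16899154, plus strand, exon 3 of 4): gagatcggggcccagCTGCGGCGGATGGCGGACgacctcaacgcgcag

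TDP-43 is known to bind UG-rich RNA, so stretches of UG repeated 3 times or more were counted as runs in the longest annotated coding transcript of each member. *Bcl2l11*, which encodes BIM, stood out with 9 runs that held 58 UG, all in the 3′ UTR. Its longest run held 24 UG, and 84 of the 15112 genes had a longer one. A stretch of 30 bases of this 3′ UTR, in exon 4 of 4, is shown because 2 runs lie side by side in it, in capitals and with T for U.
*Bcl2l11* (chr2:127985817-127985846, plus strand): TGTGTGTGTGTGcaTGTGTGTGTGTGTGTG
The runs of *Bcl2* (14 UG in 4 runs), *Bcl2l1* (13 UG in 4 runs) and *Bmf* (13 UG in 4 runs) were short, and *Mcl1* and *Bid* each had 1 run, of 5 and 3 UG. *Bax*, *Bak1*, *Bad* and *Bbc3* had none. At least 1 run was found in 71.5% of the 15112 genes, and a run of at least 10 UG in 3.65%. A run of letters is a description and does not show binding.

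Because a longer transcript yields more reads, levels of different genes were compared as CPM per kb of exon, with the exon length in the count file. *Mcl1* had the highest level in WT glands, 76.2 ± 9.42 CPM per kb (SD, n = 3). *Bax* followed with 43.8 ± 9.22 CPM per kb, and *Bmf* with 34.1 ± 17.0 CPM per kb. The ranges of *Bax* and *Bmf* overlapped over the 3 WT libraries, whereas *Mcl1* lay above both in every library.

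*Bad* (20.5 ± 2.29), *Bak1* (14.8 ± 0.558), *Bcl2l1* (8.86 ± 3.72) and *Bbc3* (6.47 ± 3.26 CPM per kb) formed the middle of the order. The ranges of *Bmf* and *Bad*, and of *Bcl2l1* and *Bbc3*, overlapped. *Bcl2l11* (2.999 ± 0.894), *Bid* (1.87 ± 0.146) and *Bcl2* (1.01 ± 0.212 CPM per kb) had the lowest levels in WT glands. The namesake of the family was therefore the least abundant of the 10 members per exon length in WT glands. *Mcl1* made up 85.7% to 91.3% of the summed level of the 3 pro-survival members. *Bcl2l2*, a pro-survival gene not among the 10 members, had 18.8 CPM per kb in WT glands and is not in this sum.

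**Figure D1:**
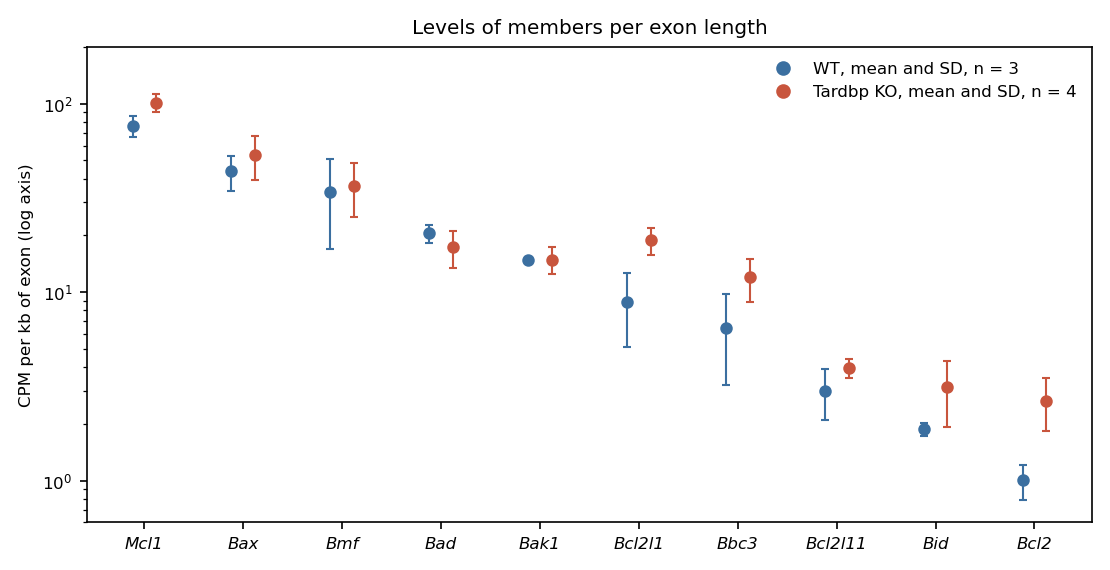
Mean level of each member in CPM per kb of exon (log axis) with SD, in WT (blue, n = 3) and *Tardbp* KO (red, n = 4) glands, ordered by the WT level. *Mcl1* was highest in both genotypes, and *Bcl2* was lowest in both.

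In *Tardbp* KO glands *Mcl1* (101 ± 11.2 CPM per kb, SD, n = 4), *Bax* (53.2 ± 14.0) and *Bmf* (36.7 ± 11.7) kept the first 3 places. *Bcl2l1*, at 18.9 ± 3.13 CPM per kb, moved from the sixth place in WT to the fourth in KO glands, where its range overlapped that of *Bad* (17.3 ± 3.88). *Bcl2*, at 2.66 ± 0.826 CPM per kb, came close to *Bid* (3.13 ± 1.20), and *Bid* was the higher of the pair in only 2 of the 4 KO libraries. *Mcl1* made up 81.9% to 83.0% of the summed level of the 3 pro-survival members in KO libraries, below each WT library. *Bcl2l2*, which is not in this sum, was lower in KO glands (10.4 against 18.8 CPM per kb in WT).

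The main question was whether pro-survival and pro-death members differed between the genotypes. Between WT and *Tardbp* KO, no member was called in edgeR's quasi-likelihood test, where a call needed an adjusted p under 0.01 together with an absolute log2 fold change over 1, as the study set it. Neither did any other gene (0.0% of all genes tested). At an unadjusted p under 0.05 the same test gave 5 members, all higher in KO glands: *Bcl2*, *Bcl2l1*, *Mcl1*, *Bid* and *Bbc3*. Over all genes tested, 10.7% passed this limit as higher and 10.7% as lower. All 3 pro-survival members and 2 of the 7 pro-death members were thus among the higher genes, and none among the lower.

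With the same limits on the adjusted p and the fold, edgeR's exact test called 2 members, *Bcl2* and *Bcl2l1*, both as higher in KO glands, against 1.04% of all genes tested called as higher. DESeq2's Wald test called the same 2 members, against 1.69% of all genes called as higher. The groups of libraries did not overlap for 4 members, *Bcl2*, *Bcl2l1*, *Mcl1* and *Bid*, each higher in all 4 KO libraries. Over all genes tested this held for 9.07% in the higher and 9.62% in the lower direction.

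*Bcl2* encodes the founding pro-survival protein (ENSMUSG00000057329, chromosome 1, 108434755 to 108610851, minus strand). WT replicates 1 to 3 had levels of 5.94, 8.91 and 6.84 CPM, against 17.7, 22.8, 24.6 and 11.4 CPM for KO replicates 1 to 4. Every KO library lay above every WT library, with KO replicate 4 the closest. WT glands averaged 7.23 ± 1.52 CPM (SD, n = 3), KO glands averaged 19.1 ± 5.94 CPM (SD, n = 4), and the fitted fold was 2.64. The log2 fold change was 1.40 with a standard error (SE) of 0.289 and an adjusted p of 0.0748 (edgeR quasi-likelihood). The exact test of edgeR gave an adjusted p of 0.00136 and DESeq2's Wald test 0.000352. Permuting the genotypes of log2(CPM + 1) over all 35 choices of 4 libraries (exact, 2-sided) gave p = 0.0571, where 0.0286 is the smallest possible. Exons of *D630008O14Rik* on the opposite strand cover 7.76% of the exon bases of *Bcl2*, and reads there were left out. Within lane 4, WT replicate 2 had 8.91 CPM and the 2 KO libraries 24.6 and 11.4 CPM.

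Lymphocytes are a known source of *Bcl2* RNA, and *Bcl2* was high in the 2 KO libraries with the most lymphocyte marker RNA. It was also high in KO replicate 2 (22.8 CPM), where the summed lymphocyte markers, 72.2 CPM, were the nearest to the WT range. The B-cell gene *Cd79a* had 54.9, 1.96, 73.1 and 17.1 CPM in KO replicates 1 to 4 and at most 0.834 CPM in WT libraries. The T-cell gene *Cd4* had 21.2, 8.67, 23.5 and 5.55 CPM in KO replicates 1 to 4, and was lowest in replicate 4. The other T-cell genes of the list ranked KO replicates 2 and 4 in different ways. *Cd3e* had 2.72 and 1.92 CPM there, against 1.29 and 2.45 CPM for *Cd3d* and 2.67 and 6.48 CPM for *Cd8a*. The part of lymphocytes in the level of *Bcl2* was not tested. All 10 lymphocyte markers had an unadjusted p under 0.05 as higher in KO glands, none was at 0 in any library, and *Cd79b* (log2 fold change 4.35) and *Cd4* (2.29) had the next lowest p. Without KO replicates 1 and 3 the log2 fold change of *Bcl2* was 1.24, with an adjusted p of 0.317 in the edgeR quasi-likelihood test. In RNA of a whole gland, more cells of a type and more RNA per cell cannot be told apart.

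*Bcl2l1* encodes BCL-XL, a pro-survival protein with several annotated transcripts, which the gene count adds up (chromosome 2, 152593052 to 152657464, minus strand). WT replicates 1 to 3 had 26.1, 60.9 and 38.9 CPM, and KO replicates 1 to 4 had 102, 69.6, 86.7 and 99.4 CPM. The genotypes did not overlap, and the nearest values were those of WT replicate 2 and KO replicate 2. The fitted fold was 2.13, with a log2 fold change of 1.09 (SE 0.277, edgeR adjusted p = 0.0907). The exact test of edgeR gave an adjusted p of 0.00924 and DESeq2 0.00616, and the exact permutation p was 0.0286, the smallest possible. WT replicate 2, the highest WT library, was also the WT library of lane 4, and within that lane the log2 difference was 0.61, compared with 1.46 when this library was left out.

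*Mcl1* encodes a pro-survival protein that is degraded quickly and so depends on continued expression (chromosome 3, 95462643 to 95467099, plus strand). Its levels were 230, 295 and 271 CPM in WT and 400, 304, 351 and 356 CPM in KO replicates 1 to 4. The groups did not overlap, but WT replicate 2 and KO replicate 2 lay close together. The fold of 1.33 was the smallest of the 3 pro-survival genes, with a log2 fold change of 0.41 (SE 0.167, edgeR adjusted p = 0.203).

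**Figure D2:**
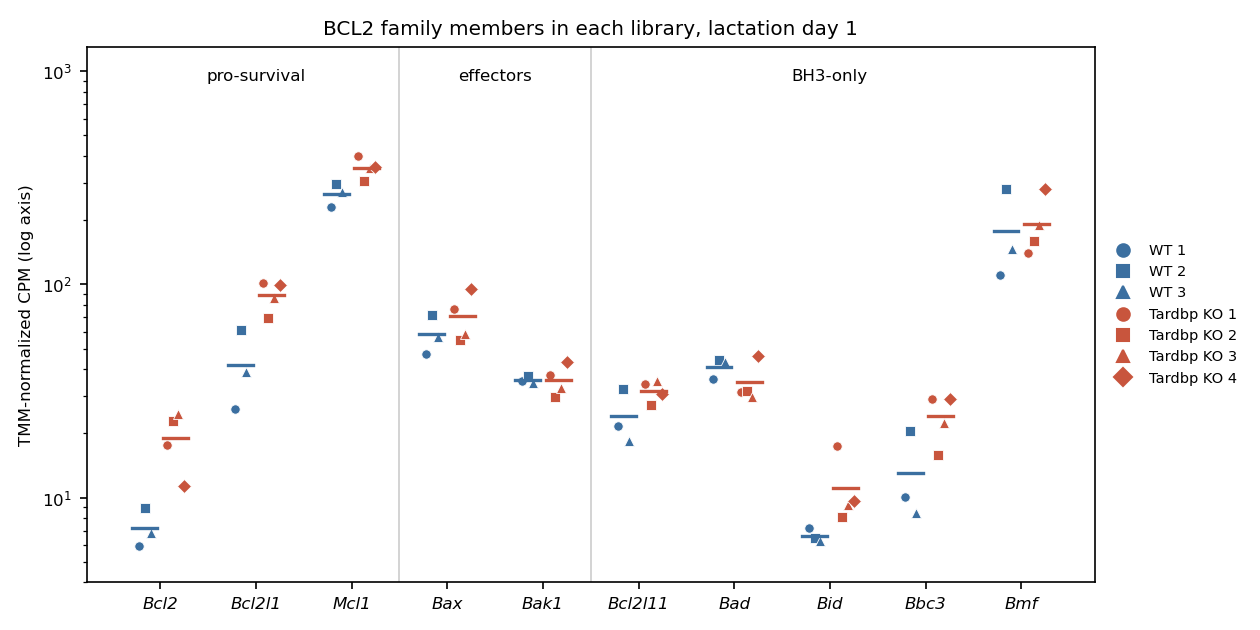
TMM-normalized CPM (log axis) of each member in each library, with WT in blue, *Tardbp* KO in red, 1 symbol per replicate and a line at the mean of each genotype. *Bcl2*, *Bcl2l1*, *Mcl1* and *Bid* showed no overlap between the genotypes, whereas the other 6 members overlapped.

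The pore-forming effectors differed little between the genotypes. *Bax* (chromosome 7, 52717065 to 52722268, minus strand) had 47.3, 71.8 and 56.8 CPM in WT and 76.4, 54.6, 58.5 and 95.6 CPM in KO libraries. KO replicates 2 and 3 lay inside the WT range, and KO replicate 4 was the highest library. Its log2 fold change was 0.28 (SE 0.229, edgeR adjusted p = 0.525). It was 0.09 without KO replicate 4, 0.15 without WT replicate 1 and 0.45 without WT replicate 2.

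*Bak1* (chromosome 17, 27156755 to 27165954, minus strand) had the most even levels of all members, 35.2, 37.0 and 34.4 CPM in WT and 37.4, 29.7, 32.7 and 43.2 CPM in KO libraries. The log2 fold change was 0.01 (SE 0.153, edgeR adjusted p = 0.983), and its sign turned with the scaling (−0.005 with DESeq2's size factors). Of its exon bases, 14.8% are shared with *Ggnbp1* on the opposite strand, so that reads in those bases went uncounted.

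Among the BH3-only members, *Bbc3* and *Bid* had the largest differences. *Bbc3* encodes PUMA, a p53-induced activator of cell death (chromosome 7, 16894965 to 16903554, plus strand). Its levels were 10.04, 20.5 and 8.44 CPM in WT and 28.9, 15.9, 22.4 and 28.9 CPM in KO replicates 1 to 4. Only KO replicate 2 fell inside the WT range, below WT replicate 2. The fitted fold was 1.85, with a log2 fold change of 0.89 (SE 0.339, edgeR adjusted p = 0.181). Without WT replicate 2 the log2 fold change was 1.38, and within lane 4 it was 0.32.

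*Bid* encodes the protein that caspase 8 cleaves to link death receptors to mitochondria (chromosome 6, 120841948 to 120866871, minus strand). WT libraries had 7.22, 6.43 and 6.24 CPM and KO libraries 17.4, 8.15, 9.25 and 9.66 CPM. The groups did not overlap, and KO replicate 1 stood far above the other 3 KO libraries. The log2 fold change was 0.74 (SE 0.284, edgeR adjusted p = 0.180) and 0.44 without KO replicate 1, where the unadjusted p was 0.0553. *Bid* shares 17.7% of its exon bases with *Bcl2l13*, another family gene on the opposite strand, which had a log2 fold change of −0.02.

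*Bcl2l11* encodes BIM, which binds all pro-survival proteins (chromosome 2, 127951774 to 127988283, plus strand). It had 21.6, 32.2 and 18.5 CPM in WT and 34.3, 27.1, 35.3 and 30.5 CPM in KO libraries. WT replicate 2 lay among the KO libraries, and the other 2 WT libraries lay below all of them. The log2 fold change was 0.40 (SE 0.206, edgeR adjusted p = 0.303). It was 0.67 without WT replicate 2 and 0.03 within lane 4, so the value of this gene with the most UG runs depended on 1 library.

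*Bmf* encodes a BH3-only protein tied to the cytoskeleton and to death after loss of attachment (chromosome 2, 118354493 to 118375423, minus strand). WT libraries had 110, 280 and 147 CPM and KO libraries 140, 160, 190 and 280 CPM, and each genotype had 1 library near 280 CPM. The log2 fold change was 0.11 (SE 0.344, edgeR adjusted p = 0.892), with a change of sign when WT replicate 1 (−0.15), WT replicate 3 (−0.02) or KO replicate 4 (−0.15) was left out. *Bmf* was the BH3-only member with the highest level per kb. Its share of the summed level of the BH3-only members was 43.2% to 58.3% in WT and 40.6% to 54.8% in KO libraries. *Bik*, a BH3-only gene outside the members, had 9.41 CPM per kb in WT and 27.9 CPM per kb in KO glands. *Bik* is not in this sum, so the shares hold for the members only.

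*Bad* encodes a BH3-only protein that growth factor signals hold inactive by phosphorylation (chromosome 19, 7016351 to 7026388, plus strand). It was the only member with a lower mean in KO glands, with 35.9, 44.4 and 43.2 CPM in WT and 31.2, 31.8, 29.7 and 46.4 CPM in KO libraries. KO replicates 1, 2 and 3 lay below all WT libraries, and KO replicate 4 lay above them. The log2 fold change was −0.24 (SE 0.184, edgeR adjusted p = 0.491), and −0.43 without KO replicate 4, with an unadjusted p of 0.0121. With scaling by library size alone the sign turned (0.10). Exons of *Gpr137* on the opposite strand cover 25.8% of the exon bases of *Bad*.

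Libraries of 1 genotype differed in most members together. WT replicate 2 had the highest WT level of 9 of the 10 members, with *Bid* as the exception, and KO replicate 2 had the lowest KO level of 7. KO replicates 1 and 4 had the highest KO level of 4 members each. In replicate 1 these were *Bcl2l1*, *Mcl1*, *Bid* and *Bbc3*, and in replicate 4 they were *Bax*, *Bak1*, *Bad* and *Bmf*. The summed CPM of 10 myeloid markers was 412 to 1544 in WT and 1105 to 2671 in KO libraries. Most of it was *Cd14* in every library except WT replicate 1. *Cd14* had 135, 1299 and 382 CPM in WT replicates 1 to 3, and in replicate 1 *Lyz2* was higher (169 CPM). For *Lyz2*, the next most abundant of this list by its mean in each genotype, replicate 2 was the lowest WT library (129.5 CPM). The part of these cells in the members' levels was not tested.

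Taking the classes side by side, the median log2 fold change was 1.09 over the 3 pro-survival members and 0.28 over the 7 pro-death members, beside 0.05 over all genes tested. It was 0.15 over the 2 effectors and 0.40 over the 5 BH3-only genes. Within each library, levels were set as log2 relative to the WT mean of the gene and averaged over a class. The pro-survival mean was −0.35, 0.37 and −0.02 in WT replicates 1 to 3 and 1.09, 0.90, 1.11 and 0.81 in KO replicates 1 to 4. The pro-death mean was −0.19, 0.35 and −0.16 in WT and 0.44, 0.02, 0.23 and 0.59 in KO libraries. The pro-survival means were apart between the genotypes, while the pro-death means overlapped.

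Pro-survival minus pro-death, on this log2 scale, was −0.16, 0.02 and 0.14 in WT and 0.65, 0.88, 0.88 and 0.22 in KO libraries. The KO values all lay above the WT values, but KO replicate 4 was closer to WT replicate 3 than to any other KO library. Because the members were chosen with results of these data known, this difference was given no test. Scaling of the libraries cancels in it. Without KO replicates 1 and 3, the median log2 fold change was 1.01 over the pro-survival and 0.30 over the pro-death members.

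**Figure D3:**
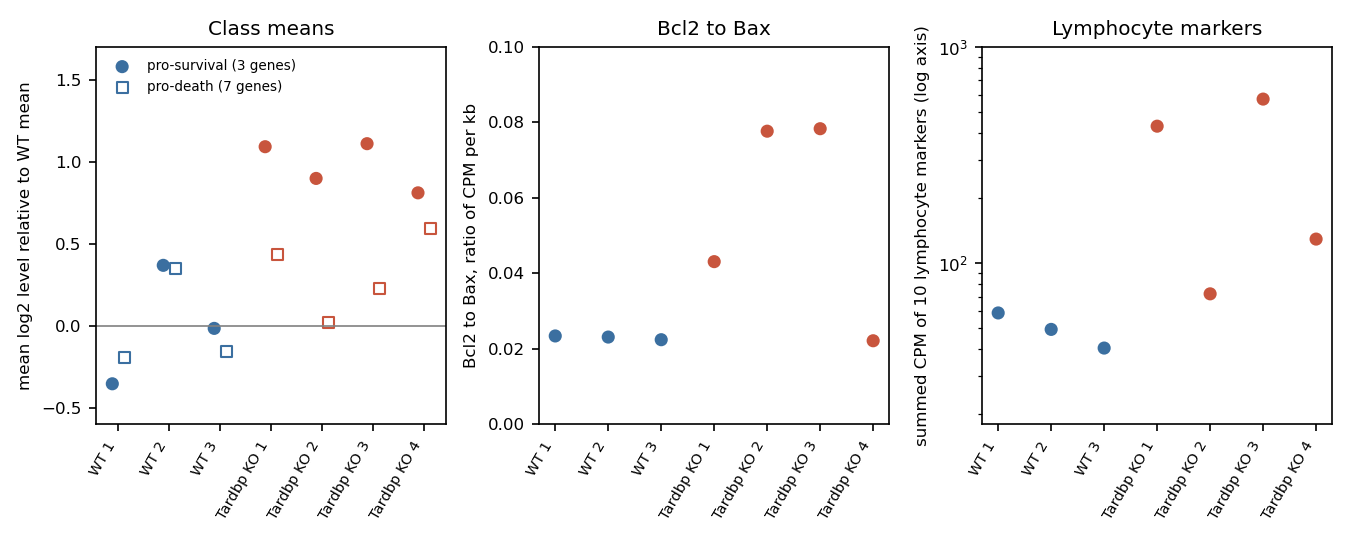
Per library, the mean log2 level of the 3 pro-survival (filled) and 7 pro-death (open) members relative to the WT mean, the ratio of *Bcl2* to *Bax* in CPM per kb, and the summed CPM of 10 lymphocyte markers (log axis), with WT in blue and *Tardbp* KO in red. The *Bcl2* to *Bax* ratio lay above the WT range in KO replicates 1 to 3 but not in replicate 4, while the lymphocyte markers were highest in KO replicates 1 and 3.

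The ratio of *Bcl2* to *Bax*, a common measure of the balance between survival and death, was nearly equal in the WT libraries at 0.0234, 0.0231 and 0.0224 (CPM per kb over CPM per kb). In KO replicates 1 to 4 it was 0.0431, 0.0777, 0.0783 and 0.0221. It was thus above the WT range in 3 KO libraries and just below it in KO replicate 4, where *Bax* had its highest and *Bcl2* its lowest KO level.

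The ratio of *Mcl1* to *Bcl2l11* was 24.6, 21.2 and 33.8 in WT and 26.9, 25.9, 22.9 and 26.8 in KO libraries. All KO values lay inside the WT range for this pair. The summed level of the 3 pro-survival genes over that of the 7 pro-death genes was 0.736, 0.616 and 0.760 in WT and 1.00, 0.931, 0.968 and 0.668 in KO libraries. *Mcl1* and *Bax* weigh most in this ratio, and KO replicate 4 again lay inside the WT range. Other family genes are not in these sums, so the ratio holds for the members only. Among them, pro-survival *Bcl2l2* had 18.8 CPM per kb in WT and 10.4 in KO glands. The BH3-only gene *Bik* had 9.41 in WT and 27.9 in KO glands. *Bcl2l15*, listed as pro-death or atypical, had 26.9 in WT and 12.5 in KO glands.

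The other BCL2 family genes had no common direction. Of 16 listed, 14 were tested, 4 had an unadjusted p under 0.05 as higher and 2 as lower in KO glands, and the median log2 fold change was 0.01. *Bcl2l2*, which encodes the pro-survival protein BCL-W, had 114, 63.0 and 75.2 CPM in WT and 48.4, 46.8, 39.6 and 50.5 CPM in KO libraries. It lay lower in every KO library, opposite to the 3 pro-survival members, with a log2 fold change of −0.86 (SE 0.204, edgeR adjusted p = 0.0848). *Bcl2l10*, another pro-survival gene, was near the limit of detection, at most 0.535 CPM in any library (log2 fold change −1.89). *Bcl2a1a* (1.44) and *Bcl2a1d* (1.13), pro-survival genes of blood cells, had higher levels in KO glands, but reads that map to several of these near-identical copies were not counted, so their values are uncertain.

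Both of the other pro-death genes with an unadjusted p under 0.05 are BH3-only genes. *Pmaip1*, which encodes NOXA, an inhibitor of MCL1, had 0.978, 1.19 and 0.773 CPM in WT and 4.88, 1.43, 4.97 and 1.79 CPM in KO libraries (log2 fold change 1.73, edgeR adjusted p = 0.120). Its 2 highest libraries, KO replicates 1 and 3, were those with the most lymphocyte marker RNA, and the part of lymphocytes was not tested. *Bik*, first found as a killer protein that binds BCL2, had 3.99, 18.1 and 4.49 CPM in WT and 20.01, 20.3, 26.3 and 38.4 CPM in KO libraries (log2 fold change 1.56, edgeR adjusted p = 0.147). As with *Bbc3* and *Bcl2l11*, WT replicate 2 lay closest to the KO libraries. The third pro-death gene by p, *Bnip3l*, had a log2 fold change of 0.27 with overlapping groups.

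**Figure D4:**
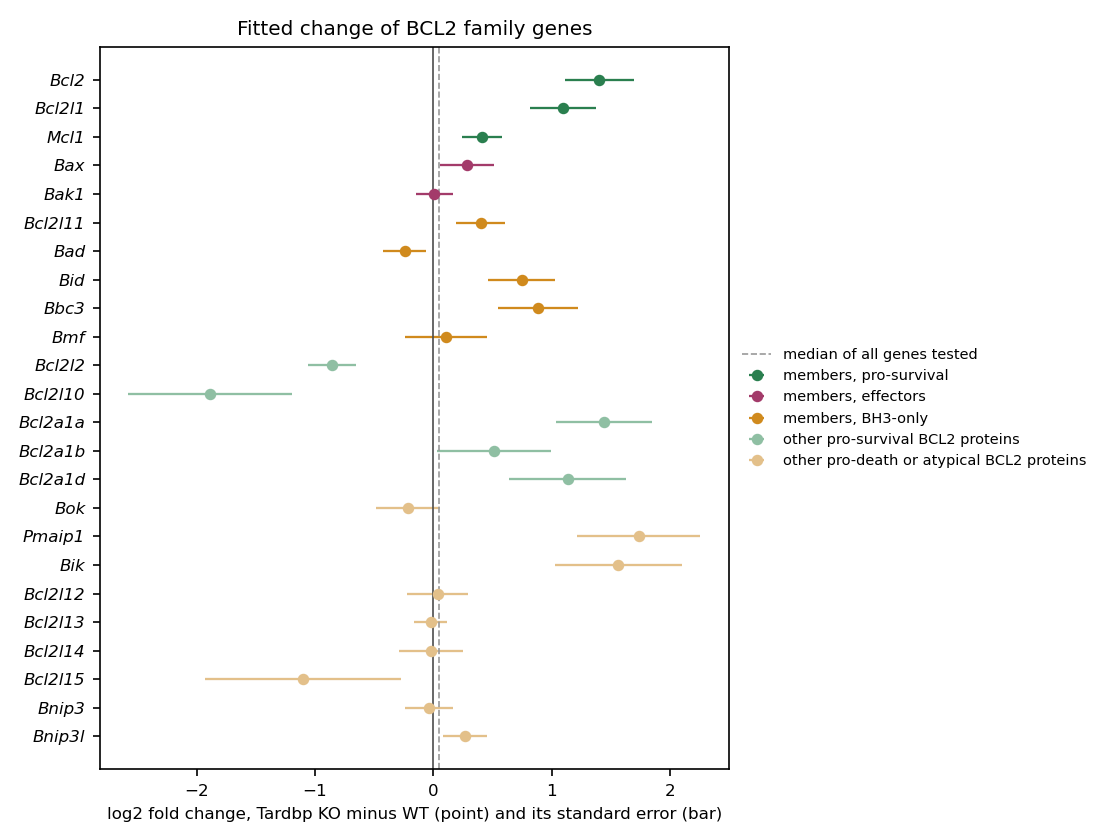
Fitted log2 fold change (*Tardbp* KO minus WT) with its standard error for the 10 members and the 14 other tested BCL2 family genes, coloured by class. The dashed line at 0.05 is the median of all genes tested, and *Bcl2l2* and *Bcl2l10* lie on the other side of it from the pro-survival members.

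Of the 9 genes of the apoptosome and caspases, 4 were higher and 1 lower at an unadjusted p under 0.05. The median log2 fold change was 0.32. Not all of these genes act after the mitochondrion is permeabilized, so the count does not describe that step alone. *Apaf1*, the scaffold of the apoptosome, had 12.2, 10.4 and 11.6 CPM in WT and 35.6, 21.3, 21.8 and 25.3 CPM in KO libraries (log2 fold change 1.19, SE 0.211, edgeR adjusted p = 0.0678). *Casp12* (1.23) and *Casp2* (0.64), the next by p, were also higher in all 4 KO libraries. The exact test of edgeR and DESeq2 each called *Apaf1* and *Casp12* as higher. The other 2 genes at that limit, named after their values were seen, were *Casp8* (0.32), which cleaves BID, and *Cycs*, the gene of cytochrome c, the lower one (−0.82).

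None of 9 death receptor genes had an unadjusted p under 0.05 (median log2 fold change 0.09), and *Fas*, *Fasl* and *Tradd*, with the lowest p, had log2 fold changes of 0.43, −0.59 and 0.28. Of 10 tested caspase inhibitors and their antagonists (median 0.18), 2 were higher, *Birc3* (0.83), a ubiquitin ligase induced by NF-kB, and *Naip5* (0.98). The third by p was *Naip6* (0.50), and the *Naip* genes are close copies with uncertain values.

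Of 13 genes whose proteins regulate members, 1 was higher and 3 were lower at an unadjusted p under 0.05, with a median of −0.15. *Bag1*, a BCL2-binding co-chaperone, was lower (log2 fold change −0.56), as was *Itpr3* (−0.55), a calcium channel. *Fbxw7*, which marks MCL1 for degradation, was higher (0.37). *Dynll1*, a dynein light chain of the kind that holds BIM and BMF at the cytoskeleton, was the remaining lower gene (−0.57) and is named after its value was seen.

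Of 10 transcription factors known to act on members, 5 were higher and 1 lower at that limit, with a median of 0.33. *Stat3*, a driver of cell death in involution, had 248, 431 and 317 CPM in WT and 514, 525, 578 and 569 CPM in KO libraries (log2 fold change 0.72, edgeR adjusted p = 0.115). *Ddit3*, a factor of the unfolded protein response that acts on *Bcl2l11* and *Bbc3*, had 0.68, and *Trp53*, the gene of p53, had 0.58. The others at that limit, named after their values were seen, were *Trp73* (0.87), *Foxo1* (0.41) and *Stat5a* (−0.55), which carries the prolactin signal. Of 11 p53 target genes outside the family, 2 were higher and 2 lower, with a median of −0.02. *Trp53inp1* had a log2 fold change of 1.40, *Ccng1* −0.35, *Aen* −0.85 and *Sesn1*, named after its value was seen, 0.55, so the targets had no common direction. DESeq2's test called *Trp53inp1* as higher, and edgeR's exact test called none of these targets.

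**Figure D5:**
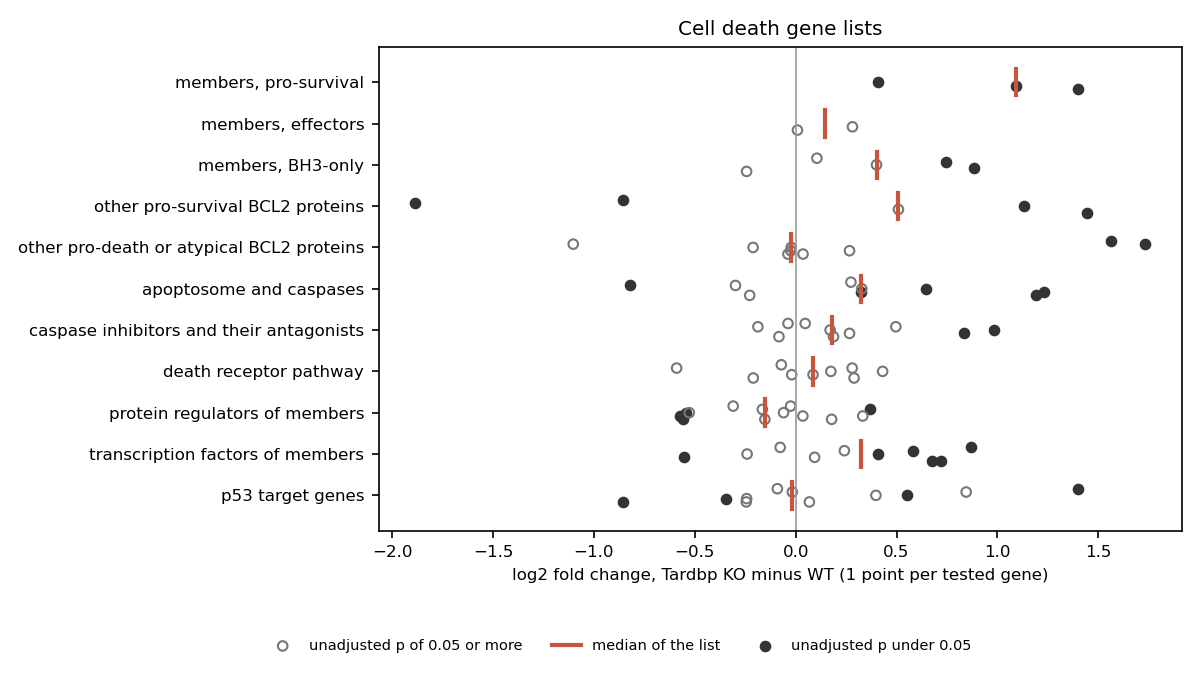
Log2 fold change of each tested gene in the lists of members and of other cell death genes, with filled points for an unadjusted p under 0.05 and a red line at the median of each list. The pro-survival members had the highest median, 1.09.

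Over the 76 tested genes of these other lists, the median log2 fold change was 0.06, close to that of all genes. At an unadjusted p under 0.05, 18 of the 76 were higher and 9 lower. Over all genes tested, the shares to set beside this and each list above were 10.7% higher and 10.7% lower. Without KO replicates 1 and 3 the count of these other genes in either direction was 13 in place of 27. It was 12 without WT replicate 1, 13 without WT replicate 3 and 16 without KO replicate 3. The count over all genes tested moved with it, from 3674 to 2119, 2158, 2547 and 2575 in these 4 fits.

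*Bcl2* was the member with the lowest p, and genes with a similar pattern over the 7 libraries were sought among 10968 genes with a mean of at least 5 CPM. Pearson's r of log2(CPM + 1) with *Bcl2* was 0.990 for *Prpf18*, 0.987 for *Crtc3*, 0.983 for *Fbxl5* and 0.981 for *Ppp3cc*. These 4 genes were picked for their r from many with only 7 points, which share library and depth, so the values are descriptions. Their log2 fold changes were 0.26 to 0.78, below that of *Bcl2*.

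Other cell type markers moved less than the lymphocyte list. At an unadjusted p under 0.05, 1 of 10 myeloid markers was lower, *S100a8* (log2 fold change −1.03), and *Lyz2* (0.68) and *Cd14* (1.49) had the next lowest p. None of 8 adipocyte, 7 fibroblast and 7 myoepithelial markers passed this limit. By lowest p, these lists gave *Lipe* (0.48), *Plin1* (0.39) and *Cfd* (0.49), then *Dcn* (0.36), *Col1a2* (−0.29) and *Dpt* (0.11), then *Krt5* (−0.57), *Krt14* (−0.57) and *Trp63* (0.23).

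Among 7 endothelial markers *Cldn5* (1.06) was higher, and *Emcn* (−0.34) and *Kdr* (−0.35) did not pass. Of 5 tested skeletal muscle markers, with at most 8.36 summed CPM in any library, *Myl1* (0.68) passed, and *Mylpf* (0.49) and *Acta1* (0.98) did not. Of 8 luminal markers 1 was higher, *Krt8* (0.55), and 3 were lower, the milk protein gene *Lalba* (−1.42), *Elf5* (−0.59) and *Wap* (−1.10), the last named after its value was seen. The part of cell composition in the members' values was not tested.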

How the data were processed

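Total RNA of mammary glands at L1 was sequenced as paired ends from 3 WT and 4 *Tardbp* KO mice. The deposited values are raw counts per gene. Per the labels and the file header, the authors made them with STAR (2.5.2a in the submitters' processing notes) on NCBIM37 and featureCounts 1.4.6-p5 with default settings, so mates counted separately, strand was ignored, and reads over several genes or places were dropped. The header names 8 alignment files, of which 7 have a column.

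Genes of mitochondria (37) and ribosomes (580) were left out, and a gene needed 5 counts or more in 4 or more libraries. WT and KO were compared in edgeR 4.0.16 (R 4.3.3, TMM, quasi-likelihood, Benjamini-Hochberg). The standard error of a log2 fold change was derived as its absolute value over the square root of the quasi-likelihood F statistic. Single members were also tested by exact permutation (2-sided) of log2(CPM + 1). Alternatives were DESeq2 1.42.0, edgeR's exact test, other scalings and filters, an adjusted p of 0.05 with no fold limit, a replicate block, lane 4 only, and libraries left out. No set test was run.

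The members and lists were chosen with earlier results of these data known. Named were all members, the 3 genes of each other list with the lowest p, other BCL2 family genes with an unadjusted p under 0.05, and the 5 genes most like the member with the lowest p, of which 1 is not reported here. Sequences come from NCBIM37 with GENCODE vM1. Protein identities between members were not computed here. Depth and the number of mice limit precision; the SD holds counting error, library preparation and differences between mice, which are not separated. The labels do not say which mouse gave each library, so p-values measure the spread between these samples.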

Additional observations from a re-analysis of the deposited data

Results flagged for a closer look

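In the 4 *Tardbp* KO libraries, 2 members had a library far from the other 3, measured as the gap to the nearest value over the whole range, with Dixon's 95% critical value for 4 values as the limit. *Bad* had 46.4 CPM in KO replicate 4, with a gap of 0.873 of the range. *Bid* had 17.4 CPM in KO replicate 1, with a gap of 0.837 of the range. This was looked at in 13 measures, and chance alone flags about 1 in 20.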

How the results depend on the processing

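No member was called at the study's limits in the quasi-likelihood fits, whatever the scaling, filter or library left out. At an adjusted p under 0.05 with no fold limit the count was 0 with all libraries, but *Bcl2* passed with no filter on low counts (0.0451), without WT replicate 2 (0.0393), without KO replicate 4 (0.0485) and with a replicate block (0.0314), and *Bcl2l1* (0.0232) and *Bbc3* (0.0376) passed without WT replicate 2 (edgeR). With the fold limit and an adjusted p under 0.01, the exact test of edgeR and DESeq2 each called 2 (*Bcl2*, log2 fold change 1.40 and 1.39; *Bcl2l1*, 1.09 and 1.08). Of other pathway genes these tests called 2 and 3. In all 17 alternatives with a test, *Bcl2* and *Bcl2l1* kept an unadjusted p under 0.05. The number of members at this limit, 5, was 8 with library size only and 2 without KO replicates 1 and 3, and lay between 2 and 5 with 1 library left out. It was 3 without WT replicate 1, 2 without WT replicate 3 and 2 without KO replicate 1. The count over all genes, 3674 of 17175, was 5809 of 17175 with library size only, 2119 of 16978 without KO replicates 1 and 3, and 2158 of 17670, 2547 of 17613 and 3482 of 17475 without WT replicate 1, WT replicate 3 and KO replicate 1. The number of other pathway genes at this limit lay between 12 and 25 with 1 library left out, and was 13 without KO replicates 1 and 3.

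Scaling by library size only moved the median log2 fold change of all genes from 0.05 to 0.42, and with it the pro-survival median (1.43), the pro-death median (0.62), the median of other pathway genes (0.43) and *Bad* (0.10). The pro-survival median was 0.61 in lane 4 only. With 1 library left out the pro-survival median ranged from 0.84 to 1.46, the pro-death median from 0.0898 to 0.583, and their difference from 0.69 to 0.93. The log2 difference in the *Mcl1* to *Bcl2l11* ratio was −0.02, with a range of −0.17 to 0.16, and 0.23 in lane 4 only. Signs turned for *Bak1* with DESeq2's size factors (−0.0048) and DESeq2's test (−0.0049), and from −0.115 to 0.0872 with 1 library left out. They turned for *Bmf* in lane 4 only (−0.25) and from −0.15 to 0.58 with 1 library left out. The cause was not tested.

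Replicate numbers are shared between the genotypes. Deviations of same-numbered libraries correlated at 0.437, 0.0744 and −0.0836, so the numbers were not taken as pairs. With a replicate block, 0 members were called, 4 had an unadjusted p under 0.05 (4225 of all 17175 genes), *Bcl2* had a log2 fold change of 1.59, *Bak1* −0.10 and *Bmf* −0.024, and 27 other pathway genes had an unadjusted p under 0.05. Every member had at least 158 counts in each library, and the effect of depth on the members was not tested.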
